A study of Mus musculus with 12 samples.

Results

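The 81 genes described here encode the proteins of the cytosolic ribosome, the particle that translates nuclear mRNA. They were taken by symbol from the 23988 genes of the deposited table: Rpl or Rps followed by a number and at most 1 of the letters a, x or l, together with Rpsa, Rplp0, Rplp1 and Rplp2. Of these, 49 belong to the large subunit and 32 to the small subunit, and 78 entered the tests because 3 libraries or more had a value of 1 or above. RNA was sequenced from whole jejunum of adult mice in 4 groups of 3 libraries each. WT mice were labelled wild type, AKO mice were Rab11aL/L with VillinCreER+, BKO mice were Rab11b-/-, and DKO mice were Rab11aL/L, Rab11b-/- with VillinCreER+. Every group, WT and BKO included, had been given tamoxifen at 40 mg/kg, and the tissue was taken 2 days later. The villin promoter drives the inducible Cre in the intestinal epithelium, so Rab11a stays intact in all other cells of the tissue. The labels leave unstated if the WT and BKO animals had Cre or loxP sites, and if numbered samples came from separate animals. The p-values below therefore measure the spread between these samples, which may be technical. RAB11A and RAB11B are small GTPases of recycling endosomes, and the series title is about their shared part in spindle function of progenitors that divide.

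Each ribosome holds 1 copy of nearly all of these proteins, with the acidic stalk proteins Rplp1 and Rplp2 as the textbook exception, so the genes of both subunits have to be expressed in proportion. Their mRNAs start with a terminal oligopyrimidine (TOP) tract, a run of C and T bases at the very start of the transcript, through which mTORC1 and the RNA-binding protein Larp1 control their translation. Myc and RNA polymerase I act with them in ribosome production, and free ribosomal proteins that fail to be assembled, Rpl5 and Rpl11 above all, bind Mdm2 and release p53. In the jejunum the rapidly dividing crypt cells make ribosomes at a high rate, whereas the absorptive cells of the villus hold most of the tissue's mRNA.

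The stretches around the start of 9 genes, those that rose from WT to DKO, are printed because a TOP tract is the sequence feature described above for mRNAs of this family. The family itself was taken by symbol. Each runs 5′ to 3′ on the transcribed strand, from 30 bases before to 20 bases after the RefSeq start (GRCm38.p6), with the longest run of C and T inside the 20 bases on either side of the start in capitals; a run that crosses the edge of that window is counted up to the edge.
Rplp2, chr7:141447621-141447670, plus strand: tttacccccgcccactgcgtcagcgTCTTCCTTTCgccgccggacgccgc
Rpl38, chr11:114668550-114668599, plus strand: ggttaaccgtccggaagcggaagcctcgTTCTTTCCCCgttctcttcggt
Rps2, chr17:24720033-24720082, plus strand: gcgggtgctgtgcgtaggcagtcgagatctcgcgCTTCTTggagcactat
Rps26, chr10:128626487-128626536, minus strand: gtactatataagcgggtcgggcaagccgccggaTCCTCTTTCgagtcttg
Rpl36a, chrX:134585624-134585673, plus strand: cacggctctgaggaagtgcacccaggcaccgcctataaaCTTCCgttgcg
Rps28, chr17:33824543-33824592, minus strand: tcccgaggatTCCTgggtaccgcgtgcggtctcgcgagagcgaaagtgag
Rps12, chr10:23787190-23787239, minus strand: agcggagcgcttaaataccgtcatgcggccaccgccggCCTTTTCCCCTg
Rpl27a, chr7:109519165-109519214, plus strand: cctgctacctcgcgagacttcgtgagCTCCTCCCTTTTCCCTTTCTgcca
Rpl23, chr11:97782420-97782469, minus strand: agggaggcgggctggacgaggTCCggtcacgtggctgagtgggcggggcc
The longest run was 20 bases in Rpl27a, 11 in Rps12 and 10 in Rplp2 and Rpl38, and only 3 in Rpl23. Where runs had equal length, the first is in capitals. This holds for Rps28, where another run of 4 bases crosses the annotated start and is left in small letters. A RefSeq promoter entry was found for 60 of the 81 genes, which had 72 entries. A run of at least 8 bases of C and T on the transcribed strand, within 20 bases of the start, was present in 30 of these entries (41.7%), against 16.05% of all 32851 entries and 16.1% of the 12985 entries of other tested genes. A missing run says only that these letters are not in this window, which depends on where RefSeq places the start.

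The libraries held 19.2 M to 29.8 M reads. Rab11a was lower in every AKO library (48.9 to 67.2 normalised fragments, fpm) and every DKO library (96.0 to 112) than in every WT library (182 to 188), and Rab11b in every BKO and DKO library (21.7 to 30.6) than in every WT library (110.3 to 119.5), so no library went against its label. Rab11a was itself higher in DKO than in AKO (log2 difference 0.83 ± 0.15, limma adjusted p = 0.00254), which holds beside every comparison of the 2 groups; its part in them was not tested. Of the tissue markers, Vil1 was at 1162 to 3525 in all libraries, but the enterocyte gene Lct was at 0 to 0.26, with 0 in 8 libraries. BKO replicate 3 stood apart from the other BKO libraries. Its summed level of 6 B and plasma cell genes was 16.7 against 452 and 834 in the other BKO libraries, and its Fabp1 was at 242 against 1.89 to 35.0 in all others. Results that rest on it are given with and without it.

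Ribosomal protein genes took up 2.86%, 3.27% and 2.92% of all values in the WT libraries (replicates 1, 2 and 3). The AKO libraries lay at 2.84%, 3.29% and 2.69% and the BKO libraries at 2.68%, 2.46% and 3.98%. In DKO the shares were 3.48%, 3.98% and 5.14%, each above every WT and AKO library, and BKO replicate 3 lay level with DKO replicate 2. As group means with their SD (n = 3), the shares were 3.01% ± 0.222 in WT, 2.94% ± 0.308 in AKO, 3.04% ± 0.819 in BKO, with 4.20% ± 0.855 in DKO. Both subunits took part, the large subunit with 1.77% ± 0.125 in WT and 2.41% ± 0.455 in DKO and the small subunit with 1.25% ± 0.0967 and 1.79% ± 0.401. This share does not depend on the size factors in the deposited values, but it does depend on the other genes: the 20 most abundant rows outside the family held 11.7% ± 0.513 of the WT total and 8.92% ± 0.632 of the DKO total. With those 20 rows left out of the total, the shares were 3.41% ± 0.240 in WT and 4.61% ± 0.945 in DKO.

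**Figure D1:**
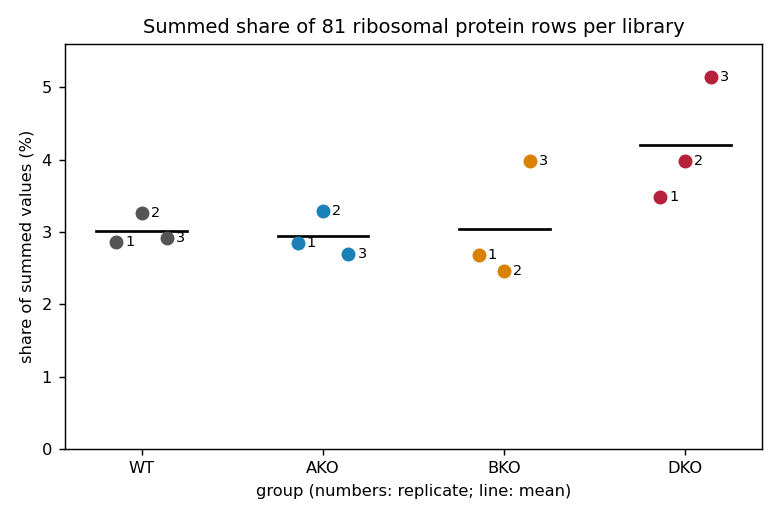
Share of all normalised values (y axis, %) in the 81 ribosomal protein rows, for each library (points, numbered by replicate) of the 4 groups, with the group mean as a line. The 3 DKO points lie at 3.48% to 5.14%, above all WT and AKO points, and BKO replicate 3 at 3.98% lies among them.

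Per kb of coding sequence (GENCODE M21, available for 77 of the 78 tested genes), the family was expressed at similar levels: the median over all 12 libraries was 855 fpm per kb, with quartiles of 632 and 1042, and 69 genes lay within 2-fold of the median. The 5 highest were Rpl41 at 4133 fpm per kb, Rplp1 at 2316, Rps29 at 1946, Rpl39 at 1670 and Rps12 at 1608. Rpl41 encodes the smallest of these proteins. Its coding length was taken as 138 bases, because for each gene the longest coding sequence among its annotated protein-coding transcripts was used. The level per kb depends on that choice of transcript. Coding length also leaves out the untranslated ends, which weigh most in such short genes. The lowest tested genes were Rpl26 at 3.06 fpm per kb, Rpl34 at 45.1 and Rpl29 at 84.6, the only 3 that far below the median. These 3 genes encode core proteins of the large subunit, and near-identical copies in the genome can take their reads. A pseudogene row of Rpl34, Rpl34-ps1, held 204 to 433 fpm per library, against 8.95 to 29.3 for Rpl34 itself. Levels of genes with such copies are uncertain, and 6 of the family have a pseudogene row of their own in the table.

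In DKO jejunum the group mean of nearly the whole family lay above WT, by a small amount that differed between the DKO libraries. The median log2 difference between the groups, on the log2(value + 1) scale, was 0.38 (1.30-fold), against -0.01 over all 13675 genes tested, and 76 of 78 genes had a positive difference. Over 77 genes (Rps27 left out), the median difference from the WT mean was 0.15, 0.25 and 0.69 in DKO replicates 1, 2 and 3. These libraries lay above all WT libraries in 48, 66 and 75 of the 77 genes, and replicate 1 lay below all WT libraries in 8. In 48 genes (61.5%) all 3 DKO libraries lay above all 3 WT libraries, against 25.5% of all genes, and in 0 they lay below, against 29.5%. In this fit calls were not denser than elsewhere: 9 genes (11.5%) rose and 0 fell, where 14.6% of all genes were called higher (limma, Benjamini-Hochberg adjusted p under 0.05). An unadjusted p under 0.05 was found for 25 of 78 genes, against 5996 of all 13675. The subunits moved alike, with a median of 0.37 and 5 of 46 genes called for the large subunit and 0.38 and 4 of 32 for the small. Without DKO replicate 3 the median was 0.20, with 69 of 78 genes above 0 and 2 called, and 2 were also called without WT replicate 3. Without BKO replicate 3, which only enters through the shared spread, 27 of 78 genes were called where 21.3% of all genes were called higher.

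The smallest adjusted p belonged to Rplp2, an acidic protein of the ribosomal stalk that recruits elongation factors. It was at 375, 415 and 352 fpm in WT replicates 1, 2 and 3, 316, 334 and 294 in AKO, 374, 395 and 517 in BKO, with 606, 531 and 671 in DKO. Each DKO library lay above each of the other 9, and the AKO libraries lay below all WT libraries. The log2 difference of DKO from WT was 0.66 ± 0.14 (SE, n = 3 per group, limma with Benjamini-Hochberg adjusted p = 0.00726). The row of its pseudogene, Rplp2-ps1, also rose, from 22.9 to 29.1 fpm in WT to 41.3 to 50.4 in DKO (log2 difference 0.85 ± 0.18, limma adjusted p = 0.00626), and reads of the pair cannot be told apart with certainty.

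Rpl38, a large-subunit protein whose loss in the mouse alters patterning of the skeleton, was at 160.1, 176 and 159.5 fpm in WT, 137, 177 and 142 in AKO, 168, 172 and 247 in BKO, with 257, 235 and 312 in DKO. All DKO libraries were above all WT and AKO libraries, and BKO replicate 3 fell between DKO replicates 1 and 2. The log2 difference was 0.69 ± 0.17 (limma adjusted p = 0.0121). Rplp2 and Rpl38 were called under each of the 27 alternatives tried, with adjusted p up to 0.0334 and 0.0437.

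Rps2, a small-subunit protein at the mRNA entry of the ribosome, was at 367, 380.3 and 377 fpm in WT, 418, 405 and 365 in AKO, 399, 379 and 846 in BKO, with 638, 769 and 748 in DKO. BKO replicate 3 had the highest value of the 12 libraries, while the other BKO libraries lay near WT. At 0.93 ± 0.25 (limma adjusted p = 0.0178) its log2 difference was the largest among the 9. Rps12, which binds the head of the small subunit, was at 539, 572 and 594.5 fpm in WT, 474, 950 and 447 in AKO, 575, 598 and 769 in BKO, with 895, 839 and 1314 in DKO. AKO replicate 2 lay above DKO replicates 1 and 2, and DKO replicate 3 was the highest. Its log2 difference was 0.81 ± 0.27 (limma adjusted p = 0.0449).

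The other 5 called genes differed less, by 0.42 to 0.59 on the log2 scale. Rps26, which contacts mRNA at the exit of the small subunit, went from 278 to 333 fpm in WT to 395 to 452 in DKO (0.48 ± 0.13, limma adjusted p = 0.0198). Rps28, its neighbour in the small subunit, went from 195 to 223 to 254 to 338 (0.47 ± 0.14, limma adjusted p = 0.0286). In the large subunit, Rpl36a went from 148 to 173 fpm in WT to 213 to 278 in DKO (0.57 ± 0.17, limma adjusted p = 0.0254). Rpl27a, at 315 to 349 in WT and 447 to 604 in DKO, had a difference of 0.59 ± 0.21 (limma adjusted p = 0.0484). Rpl23, one of the proteins that bind Mdm2, was at 391 to 449 in WT and 512 to 604 in DKO (0.42 ± 0.15, limma adjusted p = 0.0497). None of these overlapped between WT and DKO, but each lost its call when at least 1 library was left out, and so did Rps2 and Rps12. Leaving out a WT or DKO library left 2 to 5 of the 9 called.

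**Figure D2:**
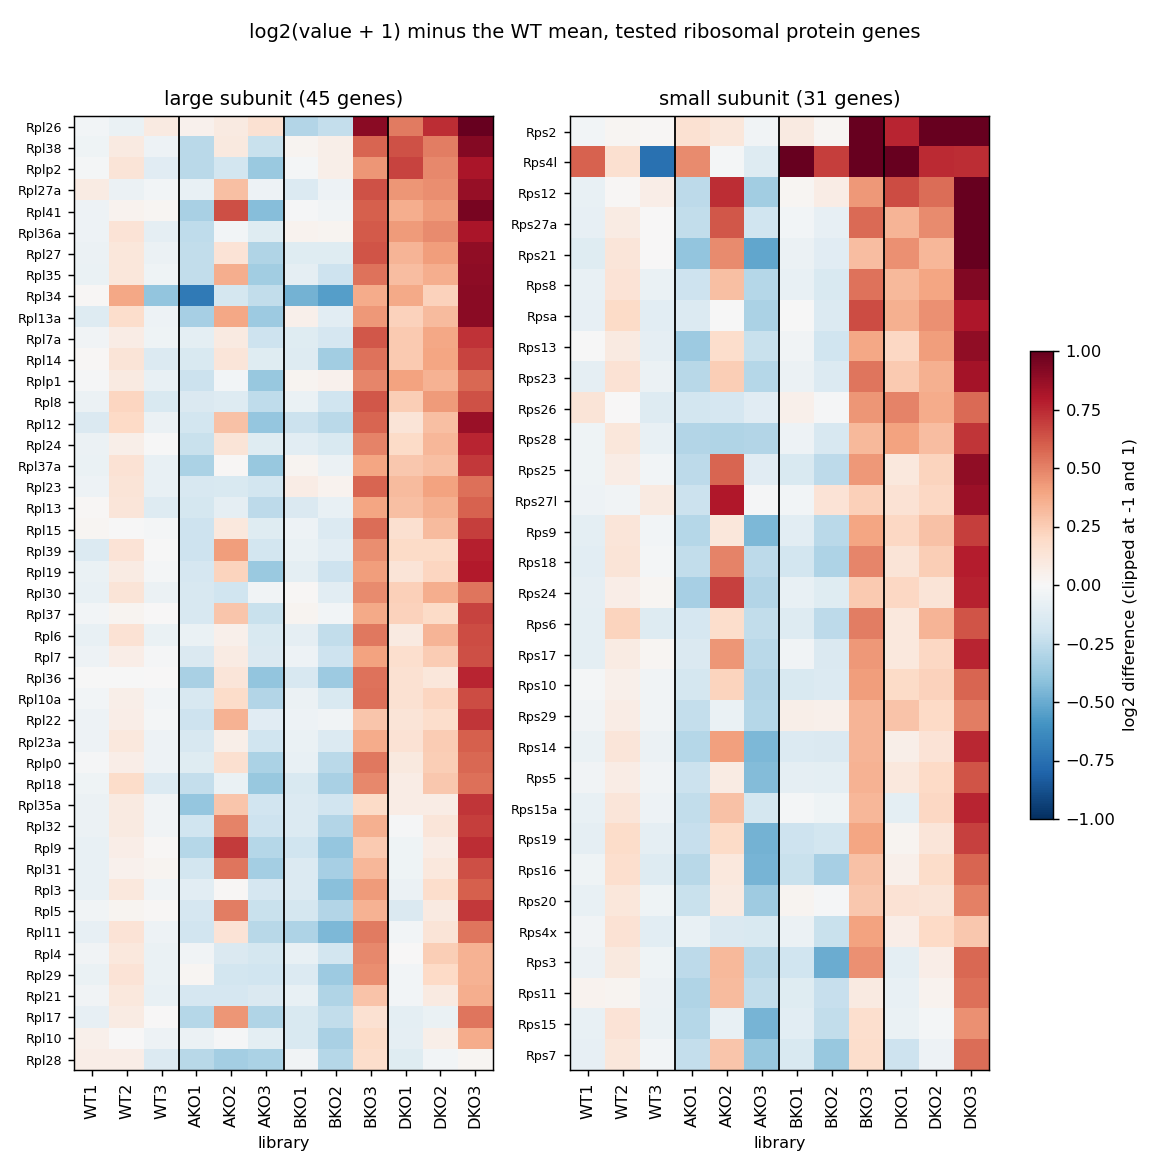
Log2(value + 1) of 76 of the 77 tested genes other than Rps27 in each library, minus its WT mean (colour, clipped at -1 and 1), with libraries in columns and genes in rows, ordered by their DKO mean within the large subunit (45 genes, left) and the small subunit (31 genes, right). DKO replicate 3 is the highest of the 12 libraries in most rows, BKO replicate 3 is coloured like the DKO libraries, and AKO replicate 2 is high in only part of the rows.

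Neighbours of these genes in the ribosome had smaller or more scattered differences. The partners of Rplp2 in the stalk did not pass the test: Rplp1 was at 686 to 769 fpm in WT and 922.5 to 1075 in DKO (0.44 ± 0.15, limma adjusted p = 0.0505), and Rplp0, the base of the stalk, at 1025 to 1109 and 1138 to 1578 (0.31 ± 0.22, limma adjusted p = 0.296). Rps6, the protein that the kinases downstream of mTORC1 phosphorylate, was at 387 to 493 fpm in WT and 454 to 654 in DKO, with overlap (0.36 ± 0.22, limma adjusted p = 0.229). Of the genes with the highest level per kb, Rpl41 had a log2 difference of 0.58 ± 0.28 (limma adjusted p = 0.139), Rps29 of 0.33 ± 0.12 (0.0615) and Rpl39 of 0.39 ± 0.22 (0.208). Of 2 genes with a negative difference, Rpl28 of the large subunit, named after its value was seen, was at 402, 400.4 and 349 fpm in WT and 351, 375 and 389 in DKO (-0.04 ± 0.12, limma adjusted p = 0.805). Its sign turned positive (0.04) when libraries were scaled by their totals, which moved the median of all genes to 0.07.

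Cell-type markers moved in the same contrast. Of 8 tested enterocyte genes 6 fell and 0 rose in DKO against WT, and the list's summed level was 21714 to 24551 fpm in WT, 17606 to 30195 in AKO, 16739 to 30555 in BKO, with 5557 to 7305 in DKO. All 6 fibroblast genes rose (summed level 223 to 320 in WT, 292 to 421 in AKO, 276 to 395 in BKO, with 714 to 1150 in DKO), 4 of 5 Paneth genes rose (1916 to 3643, 1849 to 2744, 1372 to 6459 and 4328 to 10108), and 4 of 7 T and NK cell genes fell (217 to 251, 128 to 203, 8.84 to 235 and 19.8 to 49.1). Of 9 crypt stem and cycling genes 0 rose and 2 fell (1007 to 1079, 949 to 1138, 471 to 1225 and 590 to 861). Neutrophil genes, of which the 1 tested rose, had the lowest sums of the lists in this paragraph (0.489 to 1.17, 0.219 to 0.702, 0.928 to 1.58 and 3.01 to 10.5), with S100a8 at 0 in all WT, AKO and BKO libraries. The part of these shifts in the ribosomal protein differences was not tested, and in RNA of whole tissue fewer cells of a type cannot be told apart from less RNA per cell.

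Against AKO, the median log2 difference of DKO was 0.45 (all genes 0.01), 77 of 78 genes had a positive one, and 39 (50%) did not overlap, against 25.2% of all genes. Here 19 genes (24.4%) rose and 0 fell, where 15.3% of all genes were called higher. The 5 largest without overlap were Rplp2 (0.93 ± 0.14, limma adjusted p = 0.00152), Rpl34 (0.88 ± 0.29, 0.0421; its far more abundant copy Rpl34-ps1 had -0.27 ± 0.26, 0.453), Rps2 (0.86 ± 0.25, 0.0251), Rpl38 (0.82 ± 0.17, 0.00536) and Rps28 (0.77 ± 0.14, 0.00326). Rps28 was at 167 fpm in AKO replicate 1, 166.5 in replicate 2 and 168 in replicate 3, and at 273, 254 and 338 in DKO. Among the other called genes were Rplp1, Rpsa, whose product is also known as a laminin receptor, and Rps29. The number called was 9 to 43 when 1 library was left out: 9 without AKO replicate 1 (10.3% of all genes called higher), 43 without BKO replicate 3 (21.9%), and 10 in each case without AKO replicate 3 (10.6%), DKO replicate 2 (9.96%) or DKO replicate 3 (11.8%). DKO is shared by this comparison and the 1 with WT, so they are not independent.

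Against BKO, 77 of 78 genes again lay higher in DKO (median 0.30, all genes 0.00), but only 2 (2.56%) rose and 0 fell, where 11.0% of all genes were called higher. They were Rplp2 (0.50 ± 0.14, limma adjusted p = 0.0311) and Rps28 (0.44 ± 0.14, limma adjusted p = 0.05), and 3 genes did not overlap (3.85%, against 15.5% of all genes). The BKO group was divided. BKO replicates 1 and 2 were below all WT libraries in 44 and 55 of 77 genes (Rps27 left out), while BKO replicate 3 was above all WT libraries in 75, like DKO replicate 3 with 75. Without BKO replicate 3 the median was 0.50 and 40 of 78 genes rose, where 22.3% of all genes were called higher. Without DKO replicate 3, the median was 0.14 and 0 genes of the family were called, where 8.27% of all genes were called higher.

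The interaction, DKO minus AKO minus BKO plus WT, asks whether DKO exceeds the sum of both single differences. It was positive in 76 of 78 genes with a median of 0.39 (all genes 0.02), but 0 genes were called by limma, against 2.08% of all genes called higher and 1.88% lower. At an unadjusted p under 0.05 there were 7 of 78 genes, against 3263 of all 13675. The fit with edgeR called 0 genes of the family, where 0.931% of all genes were called higher, and that with DESeq2 called 2 (3.69%). The nearest were Rplp2 (0.77 ± 0.20, limma adjusted p = 0.058) and Rps28 (0.73 ± 0.20, limma adjusted p = 0.0657). Without BKO replicate 3, 28 of 78 genes were called where 13.97% of all genes were called higher, among them Rplp2 (0.91, limma adjusted p = 0.00267) and Rps28 (0.88, limma adjusted p = 0.00322). Without DKO replicate 3 the median was 0.24.

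**Figure D3:**
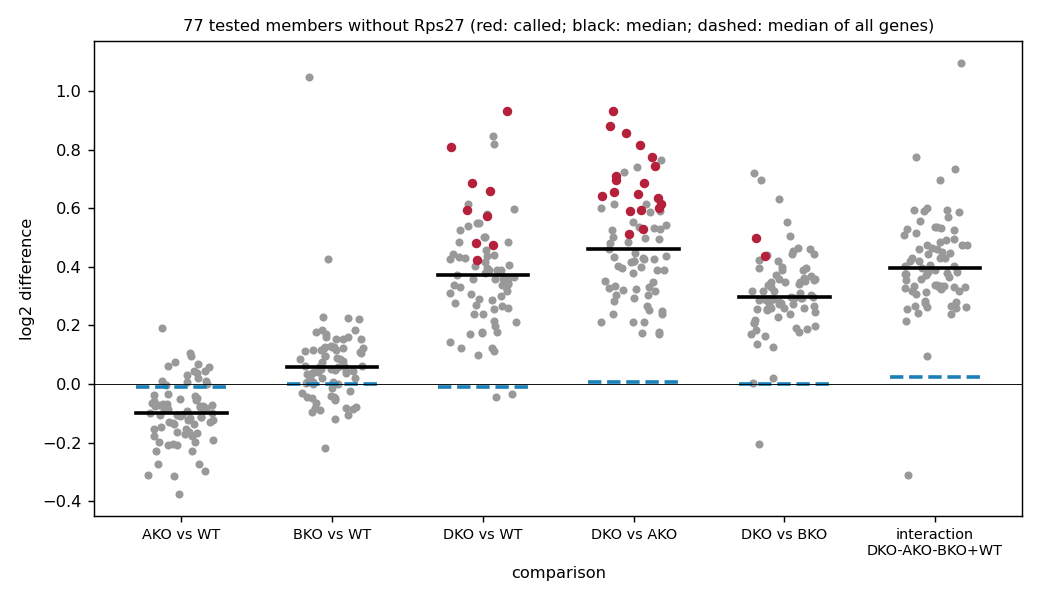
Log2 difference (y axis) of each of 77 tested genes, Rps27 left out, in the 5 comparisons between groups and the interaction (x axis), with called genes in red, their median as a black line and the median of all genes as a dashed line. The black lines lie at -0.10 in AKO and 0.06 in BKO against WT, and between 0.30 and 0.46 in the columns with DKO, while the dashed lines stay near 0.

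Loss of only 1 of the GTPases gave no called gene in the family. In AKO against WT, 61 of 78 genes lay lower, with a median of -0.10 (all genes -0.01), and 0 were called by limma, where 0.0% of all genes were called higher and 0.00731% lower, and edgeR and DESeq2 also called 0. An unadjusted p under 0.05 was found for 2 of 78 genes, among them Rpl28 (-0.31 ± 0.12), against 136 of all 13675 genes. Without overlap, 7 genes of the family lay below WT (4.78% of all genes did so) and 0 above it (3.71%). The median was -0.24 without AKO replicate 2, with 74 of 78 genes lower, and -0.02 without AKO replicate 3, with 42 lower. In BKO against WT, 57 of 78 genes lay higher with a median of 0.05 (all genes 0.00; -0.02 for the family with libraries scaled by totals), and 0 were called by limma, edgeR and DESeq2, where limma called 0.00731% of all genes higher and 0.0366% lower. Of all genes, edgeR called 0.00675% higher and DESeq2 0.709%. Without BKO replicate 3 the median turned to -0.13, with 65 of 78 genes lower. With all libraries, most genes also lay lower under scaling by totals (45 of 78), quantile scaling (50) and quality weights (58). Rps4l, an autosomal copy of the X-linked Rps4x, was the only gene of the family with an unadjusted p under 0.05, against 1466 of all 13675 genes. It was at 21.7, 15.9 and 7.99 fpm in WT and 39.0, 23.4 and 30.3 in BKO (1.05 ± 0.31, limma adjusted p = 0.352). It was also the only 1 of 78 without overlap, where 9.58% of all genes were higher without overlap and 7.68% lower. In DKO it was at 30.2, 24.4 and 24.2 (0.85 ± 0.31 against WT, limma adjusted p = 0.061).

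Individual libraries departed from their group in different sets of genes. Relative to the mean of the other AKO libraries, AKO replicate 2 was more than 1.5-fold higher in 20 of 77 genes. These included Rps12 (log2 deviation 1.04), Rpl41 (1.02), Rps24 (1.00), Rpl9 (0.99), Rps21 (0.93) and Rps27l (0.92), whereas Rpl28 (-0.04), Rpl4 (-0.04), Rps4x (-0.03) and Rps26 (-0.02) matched the other AKO libraries. DKO replicate 3 departed from the other DKO libraries in a similar set of genes, with 0.60 for Rps12, 0.72 for Rpl9 and 0.68 for Rps27l, but 0.10 for Rpl28 and 0.13 for Rps26. Across the 77 genes, which are not independent replicates, the deviations of these 2 libraries had a Pearson correlation of 0.81 and a Spearman correlation of 0.85, against a Pearson correlation of -0.02 over all 13675 genes. This was the highest of 54 pairs of libraries from different groups, whose correlations over the 77 genes ran from -0.82 to 0.81, with AKO replicate 1 and DKO replicate 2 next at 0.69. The deviations within a group depend on each other, so these pairs are not independent. BKO replicate 3 lay above the other BKO libraries in all 77 genes, 31 of them over 1.5-fold, led by Rpl26 (1.17) and Rps2 (1.12), and its deviations had a Pearson correlation of 0.13 with those of DKO replicate 3 and -0.09 with those of AKO replicate 2. Over 76 genes with a coding length, the Spearman correlation of the deviation with coding GC content was -0.23 in AKO replicate 2 and -0.33 in DKO replicate 3, and with coding length -0.20 and -0.10. The DKO minus WT difference had a Spearman correlation of -0.28 with coding length, 0.11 with coding GC and -0.20 with mean level. These are descriptions, and the part of sequence content in the library deviations was not tested.

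**Figure D4:**
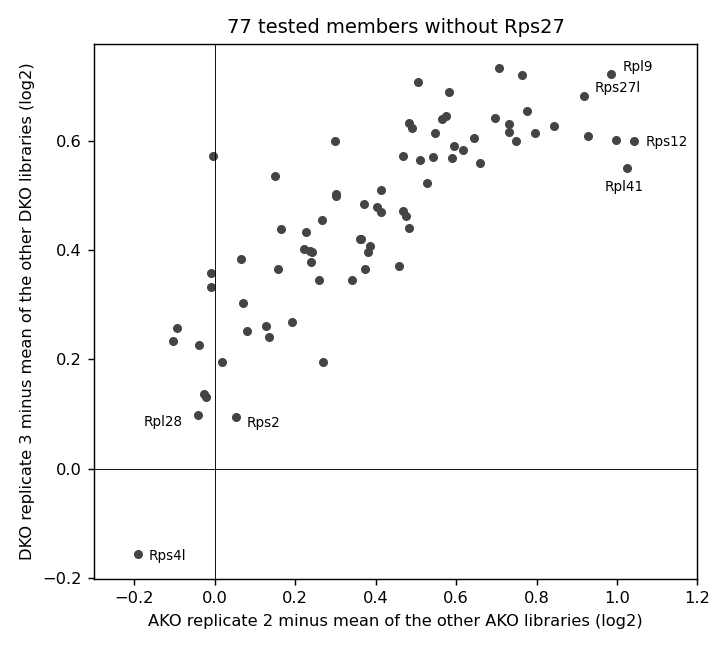
Deviation of AKO replicate 2 from the mean of the other AKO libraries (x axis, log2) against that of DKO replicate 3 from the other DKO libraries (y axis, log2), 1 point per gene for 77 tested genes without Rps27. Genes run from Rpl28 and Rps2 near the origin to Rps12, Rpl9 and Rpl41 at the upper right, with Rps4l negative on both axes (Pearson correlation 0.81).

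Rps27, a small-subunit protein with a zinc finger, behaved unlike any other gene of the family. Its row held 1.18, 1.097 and 1.21 fpm in WT, 282, 1.13 and 286 in AKO, 0.928, 1.24 and 0.917 in BKO, with 1.16, 1.21 and 520.0 in DKO. The row of Rps27rt, an intronless copy, was its mirror image: 351, 414 and 371 fpm in WT, 0.344, 540.2 and 1.01 in AKO, 329.6, 296 and 361 in BKO, with 309.7, 321 and 0.64 in DKO. In 3 libraries (AKO replicates 1 and 3 and DKO replicate 3) the reads were therefore listed under Rps27, and in the other 9 under Rps27rt. Of all genes, Rps27 was the only 1 at least 10-fold higher, on the value + 1 scale, in every one of those 3 libraries than in the 9, and Rps27rt the only 1 at least 10-fold lower. The 3 libraries were picked by their Rps27 value, so this is no test of Rps27, and smaller shifts were not searched. Over the 77 other tested genes, DKO replicate 3 was the highest of 12 libraries in 69. AKO replicates 1 and 3 were the lowest in 16 and 39. A part of read assignment in other rows was not tested. The GRCm38 coding sequences of Rps27 (chr3:90212671-90213651, minus strand, 4 exons) and Rps27rt (chr9:114982366-114982739, minus strand, 1 exon) are 252 bases long and differ at 0 positions, and the shared sequence is printed because it leaves no base of the coding sequence to tell the transcripts apart; their untranslated ends were not compared.
Rps27 and Rps27rt: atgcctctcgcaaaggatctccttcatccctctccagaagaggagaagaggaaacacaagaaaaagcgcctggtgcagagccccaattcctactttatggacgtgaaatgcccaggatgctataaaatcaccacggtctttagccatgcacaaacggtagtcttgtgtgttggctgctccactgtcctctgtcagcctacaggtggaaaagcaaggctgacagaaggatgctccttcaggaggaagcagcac
Summed over both rows, the level was 380 ± 32.5 fpm in WT, 370 ± 148 in AKO, 330 ± 32.3 in BKO, with 385 ± 118 in DKO (SD, n = 3), so the groups differed by less than the spread within AKO and DKO. The row of Rps27 alone gave a log2 difference of 2.65 ± 2.15 in DKO against WT (limma adjusted p = 0.363) and 4.69 in AKO against WT (adjusted p = 1), and the sum gave -0.02 (adjusted p = 0.958) and -0.10 (adjusted p = 1). The single row is no measure of Rps27 expression here, and the assignment of reads by the authors' counting was not tested.

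**Figure D5:**
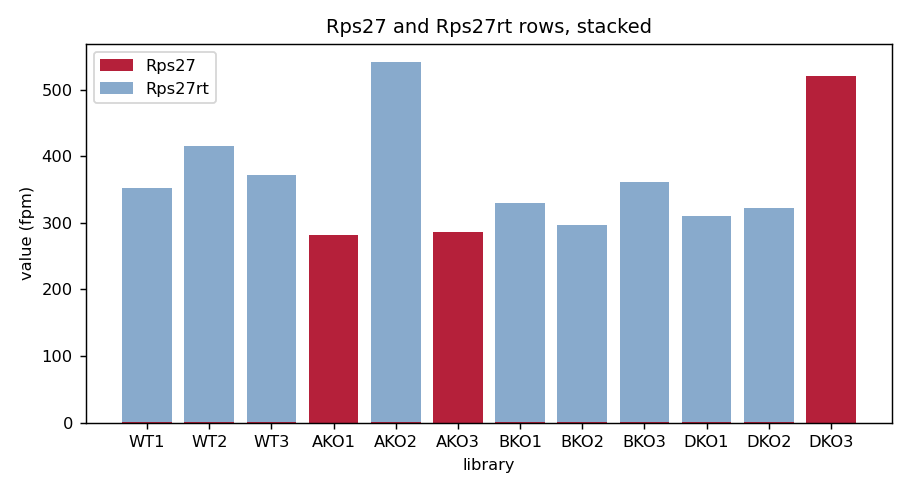
Normalised values (fpm, y axis from 0) of the Rps27 row (red) and the Rps27rt row (blue) stacked for each library. AKO replicates 1 and 3 and DKO replicate 3 are red, the other 9 libraries blue, and the stacks reach 282 to 541 fpm.

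Of the paralogues that the naming rule takes in, most had no reads in their rows, and whether reads went to other rows was not tested. Rpl3l, which replaces Rpl3 in striated muscle, and Rpl10l and Rpl39l, copies of Rpl10 and Rpl39 used in the testis, had 0 reads in all 12 libraries. Their common partners were at 573 to 651 fpm (Rpl3), 503 to 539 (Rpl10) and 209 to 253 (Rpl39) in WT. In DKO they were at 580.5 to 912, 490 to 672 and 262 to 394, with log2 differences of 0.24 ± 0.22 (limma adjusted p = 0.419), 0.11 ± 0.15 (0.593) and 0.39 ± 0.22 (0.208). Rps27l, a p53-induced relative of Rps27, was expressed, at 114, 115 and 126 fpm in WT, 102, 207 and 117.5 in AKO, 116, 130.4 and 139.7 in BKO, with 131, 136 and 215 in DKO. Its DKO libraries lay above all WT libraries, yet AKO replicate 2 came close to the highest of them, and the difference was not called (0.40 ± 0.25, limma adjusted p = 0.242). The 4 skeletal muscle markers had a summed level of 4.48 to 52.9 fpm over all groups and the 4 germ cell markers of at most 1.09. Rpl26, with 10 to 71 reads per library, had a difference of 0.82 ± 0.30 (limma adjusted p = 0.0559), and its DKO and WT libraries did not overlap.

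Genes that work with the ribosome were followed in DKO against WT by lists of their pathways. For each list, the shares to read its calls against are the 14.6% of all genes called higher and the 17.2% called lower. Of 53 ribosome assembly genes, 6 rose and 0 fell, 52 had a positive difference, and the median was 0.60. Npm1, a nucleolar chaperone, was at 294, 349 and 263 fpm in WT and 511, 762 and 915 in DKO, with BKO replicate 3 at 833 and the other BKO libraries at 283 and 226 (1.24 ± 0.40, limma adjusted p = 0.0371). Bysl, needed for the small subunit, had a difference of 1.08 ± 0.35 (limma adjusted p = 0.0361), and Utp3 of the small-subunit processome of 0.50 ± 0.17 (0.0432). Of 13 RNA polymerase I genes, only Polr1d rose (0.61 ± 0.19, limma adjusted p = 0.0339), 0 fell, and the median was 0.41.

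Among 35 initiation factors, 6 rose and 1 fell, with a median of 0.40. Eif6, which keeps the large subunit from joining too early, was at 251, 267 and 261 fpm in WT, 224, 225 and 228 in AKO, 275, 299 and 423 in BKO, with 524, 489 and 497 in DKO (0.95 ± 0.14, limma adjusted p = 0.00128). All DKO libraries lay above the other 9. Eif2s2, the beta subunit of the factor that brings the initiator tRNA, had a difference of 1.08 ± 0.23 (limma adjusted p = 0.00668) and Eif1, a factor of start-site selection, of 0.55 ± 0.11 (0.00431). The 1 that fell, named after its value was seen, was Eif3f (-0.30 ± 0.10, limma adjusted p = 0.0357). Of 10 elongation factors and their relatives, 2 rose and 0 fell: Eef1d (0.77 ± 0.24, limma adjusted p = 0.0307) and Eif5a (0.79 ± 0.25, limma adjusted p = 0.0318), with a list median of 0.35. Of 7 ribosomal proteins outside the naming rule only Rpl22l1 rose, from 85.9 to 93.1 fpm in WT to 141 to 235 in DKO (0.92 ± 0.26, limma adjusted p = 0.0211), 0 fell, and the median was 0.37.

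Regulators of the family were split. Of 17 genes of mTORC1 and TOP mRNA control, 4 rose and 0 fell, with a median of 0.09. Eif4ebp1, a repressor of cap-dependent translation that mTORC1 inactivates, had the largest difference of these: 16.5, 16.9 and 14.8 fpm in WT, 19.5, 20.1 and 16.4 in AKO, 21.8, 24.05 and 73.4 in BKO, with 78.6, 81.2 and 81.8 in DKO (2.26 ± 0.35, limma adjusted p = 0.0015). The DKO libraries agreed closely, and BKO replicate 3 lay just below them. Rragc and Rraga, GTPases that bring mTORC1 to the lysosome, rose by 0.64 ± 0.11 (limma adjusted p = 0.00275) and 0.53 ± 0.13 (limma adjusted p = 0.0131). In the MYC network of 10 genes, 1 rose and 3 fell, with a median of -0.33. The 1 that rose was Myc itself, named after its value was seen, from 20.7, 30.5 and 16.8 fpm in WT to 35.8, 59.1 and 47.4 in DKO (1.05 ± 0.30, limma adjusted p = 0.0221). Those that fell were Mycn (-1.13 ± 0.18, limma adjusted p = 0.00176), Max, the partner of MYC proteins on DNA (-1.002 ± 0.278, limma adjusted p = 0.0202), and Mxi1, which competes with them for Max (-1.47 ± 0.40, limma adjusted p = 0.0192).

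Of 10 genes of ribosomal protein stress and p53, 5 rose and 0 fell, with a median of 0.34. Phlda3, a p53-induced repressor of Akt, was at 2.73, 1.97 and 2.39 fpm in WT, 4.73, 3.58 and 3.42 in AKO, 2.64, 2.25 and 1.98 in BKO, with 6.79, 8.03 and 7.502 in DKO (1.33 ± 0.16, limma adjusted p = 0.00055). Here BKO replicate 3 did not lie near DKO. Eda2r, a p53-induced receptor, had a difference of 0.91 ± 0.19 (limma adjusted p = 0.00603) and Mdm2 of 0.61 ± 0.17 (limma adjusted p = 0.0184). For comparison, 7 of 77 mitochondrial ribosomal protein genes rose and 2 fell (14.6% and 17.2% of all genes), with a median of 0.21. That set, taken by name after earlier results were known, serves the ribosome inside mitochondria.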

How the data were processed

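Polyadenylated RNA libraries from total RNA (a TruSeq kit that does not mark strand, per the labels' protocols) were sequenced from 12 jejunum samples. The authors deposited 1 table of normalised values, a signal in fragments per library divided by size factors (fpm). Per the submitters' processing notes, FastQC 0.11.3, Trimmomatic 0.36, DESeq2 and build mm9 were used; how fragments were counted, and on which annotation, was not given in the sources used here. All values (100%) were whole multiples of 1 step per library within 0.001 reads, so the deposited signal allowed whole reads to be recovered (19.2 M to 29.8 M per library) for edgeR 4.0.16 and DESeq2 1.42.0, run as alternatives. The design had assumed normalised values, so limma 3.58.1 (R 4.3.3) was kept: trended prior, log2(value + 1), 1 coefficient per group, 12 libraries, 13675 genes that reached a value of 1 in 3 libraries or more, two-sided, Benjamini-Hochberg adjusted over all of them, called under 0.05. Scaling, filter, pseudocount, fit and left-out libraries were varied. Scripts were tested on simulated data. Promoter entries and coding lengths come from GRCm38, not mm9, and were matched by symbol. No column belonged to another series (0). Some genes are counted but not reported by name here.

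The family and all lists were chosen with earlier results of these data known. Named were called genes (if over 10, the 5 largest differences without overlap), the 5 highest per kb, the stalk genes, Rps6, paralogues with their partners, and up to 3 called genes per list. Lists covered ribosomal proteins outside the rule, elongation, initiation, ribosome assembly, RNA polymerase I, mTORC1, the MYC network, p53, mitochondrial ribosomal proteins and cell types. Marker lists not described in the results had, in DKO against WT, 3 of 7 goblet genes higher and 1 lower, 3 of 5 enteroendocrine, 2 of 5 macrophage, 1 of 4 endothelial, 1 of 5 glial and neuronal and 1 of 1 tested neutrophil genes higher, and 0 called among 5 B and plasma cell, 6 smooth muscle, 2 red blood cell and 3 skeletal muscle genes.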

Additional observations from a re-analysis of the deposited data

How the results depend on the processing

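The median difference of the family kept its direction in the interaction and where DKO was set against WT, AKO or BKO, under each alternative that was run, and moved by less than 0.27, the SD of the library medians within groups. When 1 library was left out, the median ranged from 0.20 to 0.48 with WT as the other group, from 0.30 to 0.59 with AKO, from 0.14 to 0.50 with BKO, and from 0.24 to 0.60 in the interaction. In AKO against WT they ranged from -0.24 to -0.02, and in BKO against WT from -0.13 to 0.18. In BKO against WT most genes of the family lay lower under quantile scaling (50 of 78) and quality weights (58 of 78). Scaling by totals gave -0.02 in BKO against WT, and took the median of all genes to 0.15 in DKO against BKO and to 0.14 for the interaction, where the family's medians were then 0.47 and 0.52. It also moved the split of all called genes from 1995 higher and 2353 lower to 2318 and 1901 in DKO against WT, from 1498 and 1646 to 2073 and 967 in DKO against BKO, and, for the interaction, from 284 and 257 to 367 and 179. Counts of called genes were less stable, and the causes were not tested.

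In DKO against WT, against 9 called, the count was 19 with scaling by totals, 25 with only the groups compared and 55 with quality weights, where 16.9%, 19.8% and 34.4% of all genes were called higher, so that under these settings the family's calls were denser than those of all genes (quality weights stopped before their convergence tolerance). It was 14 with DESeq2 (12.7%), 22 without BKO replicate 3 and WT replicate 2 (19.1%), and 3 without AKO replicate 2 and DKO replicate 3 (11.6%, an alternative added after seeing the data). It was 2 to 27 when 1 library was left out. In DKO against AKO, against 19, it was 71 with quality weights (70 higher, 1 lower), where 33.7% of all genes were called higher. It was 41 without BKO replicate 3 and WT replicate 2 (22.1%), and 11 without AKO replicate 2 and DKO replicate 3 (10 higher, 1 lower, with 8.77% of all genes called higher). It was 9 to 43 with 1 library left out (10.3% and 21.9%). In DKO against BKO, the main count was 2, and shares of all genes called higher stand in brackets. It was 1 with a pseudocount of 0.1 (10.4%), with no filter (9.10%), with TMM scaling (10.8%) and without genes that have a pseudogene row. It was 6 with scaling by totals (15.1%), 7 with quantile scaling (10.1%), 0 with only the groups compared (3.49%) and 30 with quality weights (21.9%). It was 39 without BKO replicate 3 and WT replicate 2 (22.4%) and 0 without AKO replicate 2 and DKO replicate 3 (8.23%). With 1 library left out it was 0 to 40, with 40 without BKO replicate 3 (22.3%). In the interaction, the main count was 0, with shares of all genes called higher again in brackets. It was 1 with scaling by totals (2.68%), 1 with quantile scaling (1.86%), 43 with quality weights (16.8%) and 2 with DESeq2 (3.69%). It was 13 without BKO replicate 3 and WT replicate 2 (11.2%). Without AKO replicate 2 and DKO replicate 3 it was 1 (lower), where 23 of all 13509 genes were called lower. With 1 library left out it was 0 to 28, with 28 without BKO replicate 3 (13.97%). In AKO against WT it was 0 with 1 library left out and 1 without AKO replicate 2 and DKO replicate 3, which was Rps27.

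The replicate numbers did not pair the samples: of 18 same-numbered pairs, 4 had correlated deviations over 0.1 (range -0.30 to 0.18). With the replicate number as a block, DKO had 8 called genes against WT, 16 against AKO and 0 against BKO, where 13.8%, 14.2% and 9.86% of all genes were called higher, and the interaction had 0 (1.17%).

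Without DKO replicate 3 the genes of the family below 0 went from 2 to 9 against WT, from 1 to 6 against AKO and from 1 to 5 against BKO. Among the genes named in the text, the signs that reversed belonged to genes that were not called. Rps27 went to -0.0201 in DKO against WT and -0.10 in AKO against WT when its row was replaced by the sum with Rps27rt (added after seeing the data). Rpl10 in DKO against WT was at -0.0163 without DKO replicate 3, alone or together with AKO replicate 2, and at up to 0.212 with another single library left out. Rpl28 was at 0.0441 with scaling by totals. Depth limits Rpl26 most, with 10 to 71 reads per library.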
